A study of Drosophila melanogaster with 4 samples.

Results

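The cell cycle and DNA replication genes described here are 40 named genes of *Drosophila melanogaster*, chosen by gene symbol and matched to array probes by the CG number in each probe's identifier. They fall into 4 groups by role, with 15 genes of origin licensing and replication, 11 cyclins, Cdks and their regulators, 4 genes of E2F and Rb, and 10 genes of mitosis and anaphase. The 40 genes had 70 probes among 32162 distinct probes on the array, and all 70 were bright enough to be kept, so that every gene was measured among 14861 genes and unnamed transcripts tested. Each of the 40 had at least 1 probe well above background in both genotypes on 4 of 4 arrays, and 0 probes were saturated.

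Whole embryos homozygous for ectopic expression of the microRNA mir-3 were compared with wild-type w1118 embryos, and both carried the w1118 genetic background. Laying lasted 2 h at 25 °C, and embryos were taken 6 to 8 h old. The sources used here do not give how the ectopic expression was driven or in which cells. RNA of both genotypes was hybridised together on 4 two-colour arrays covering 3 biological replicates, with mir-3 ectopic RNA in Cy3 on 3 arrays and in Cy5 on a dye swap of replicate 1. Values are log2 ratios of mir-3 ectopic over w1118, and means are over 3 replicates with their SD, the 2 arrays of replicate 1 being averaged first. Directions follow the dyes given in the labels, and their sign is the reverse of the authors' value table, which runs w1118 over mir-3 ectopic. The level of mir-3 itself was not analysed here, as 0 probes carry its name.

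A cell copies its DNA once per cycle because origins are licensed before S phase and fired after it begins. The origin recognition complex, Cdc6 and Cdt1 load the MCM helicase, geminin holds Cdt1 in check, and the E2F factors, restrained by Rb proteins, switch on many replication genes. Cyclins bound to Cdks drive each transition, Cdc25 phosphatases release Cdk1 for mitosis, and the anaphase-promoting complex then destroys securin and the mitotic cyclins. In the fly embryo the first cycles run on maternal products, later ones wait for zygotic *stg*, and by the ages sampled here many epidermal cells are approaching or have entered arrest in G1 while neural precursors go on dividing.

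The arrays lay on 2 slides, one with both arrays of replicate 1 and the other with replicates 2 and 3. Per array, 57.6% to 64.7% of probe spots carried mir-3 ectopic signal well above background, and 59.1% to 66.1% carried such w1118 signal. Over all genes, the ratios of the 3 arrays of one dye orientation correlated at 0.941 to 0.945 with each other and at 0.75 to 0.80 with the dye-swap array. These values are a description only, since the arrays share their probes, and the 3 arrays share their dye orientation as well. Beside the labelled tissue, 12 genes of the germ layers, segments and nervous system of this stage were read, such as *twi*, *wg* and *elav*. All 12 were measured, but so were 17 of 17 maternal transcripts cleared early, so being measured does not show tissue or stage. Of the 12, 5 were lower in mir-3 ectopic embryos, led by *tin* (-0.73) and *en* (-0.25), and 1 was higher. That is 41.7% lower and 8.3% higher, against 24.4% and 24.3% of all genes. The number of arrays limits the precision, and in whole embryos fewer cells of a type and less RNA per cell cannot be told apart.

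Most of the 40 genes differed between genotypes, and the larger differences were mainly increases. In limma with Benjamini-Hochberg adjustment over all genes and a threshold of 0.05, 27 of the 40 passed, or 67.5%, against 48.7% of all genes tested. Of the 40, 17 were higher in mir-3 ectopic embryos, 10 were lower and 13 did not pass. That is 42.5% higher and 25.0% lower, where 24.3% of all genes were higher and 24.4% lower, so the share of lower genes was close to that of the whole array. With an absolute log2 ratio of at least 0.4 as well, 9 of the 40 were higher, or 22.5%, against 6.98% of all genes, and 1 was lower, or 2.5%, against 5.8%. This count depends on how the dye is handled. In a fit with the dye as a term, *dup* (0.39), *Orc6* (0.39), *Bub1* (0.37) and *Cks85A* (-0.24) fell short of 0.4 in absolute size. The other genes of the count stayed past it, and the share of all genes past 0.4 in that fit was not computed. The median of the 40 was 0.06, and -0.002 over all genes, with medians of 0.05, 0.05 and 0.08 in replicates 1, 2 and 3 and 0.02 on the dye-swap array alone. The differences were modest in size, with a median absolute log2 ratio of 0.22, against 0.14 over all genes.

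**Figure D1:**
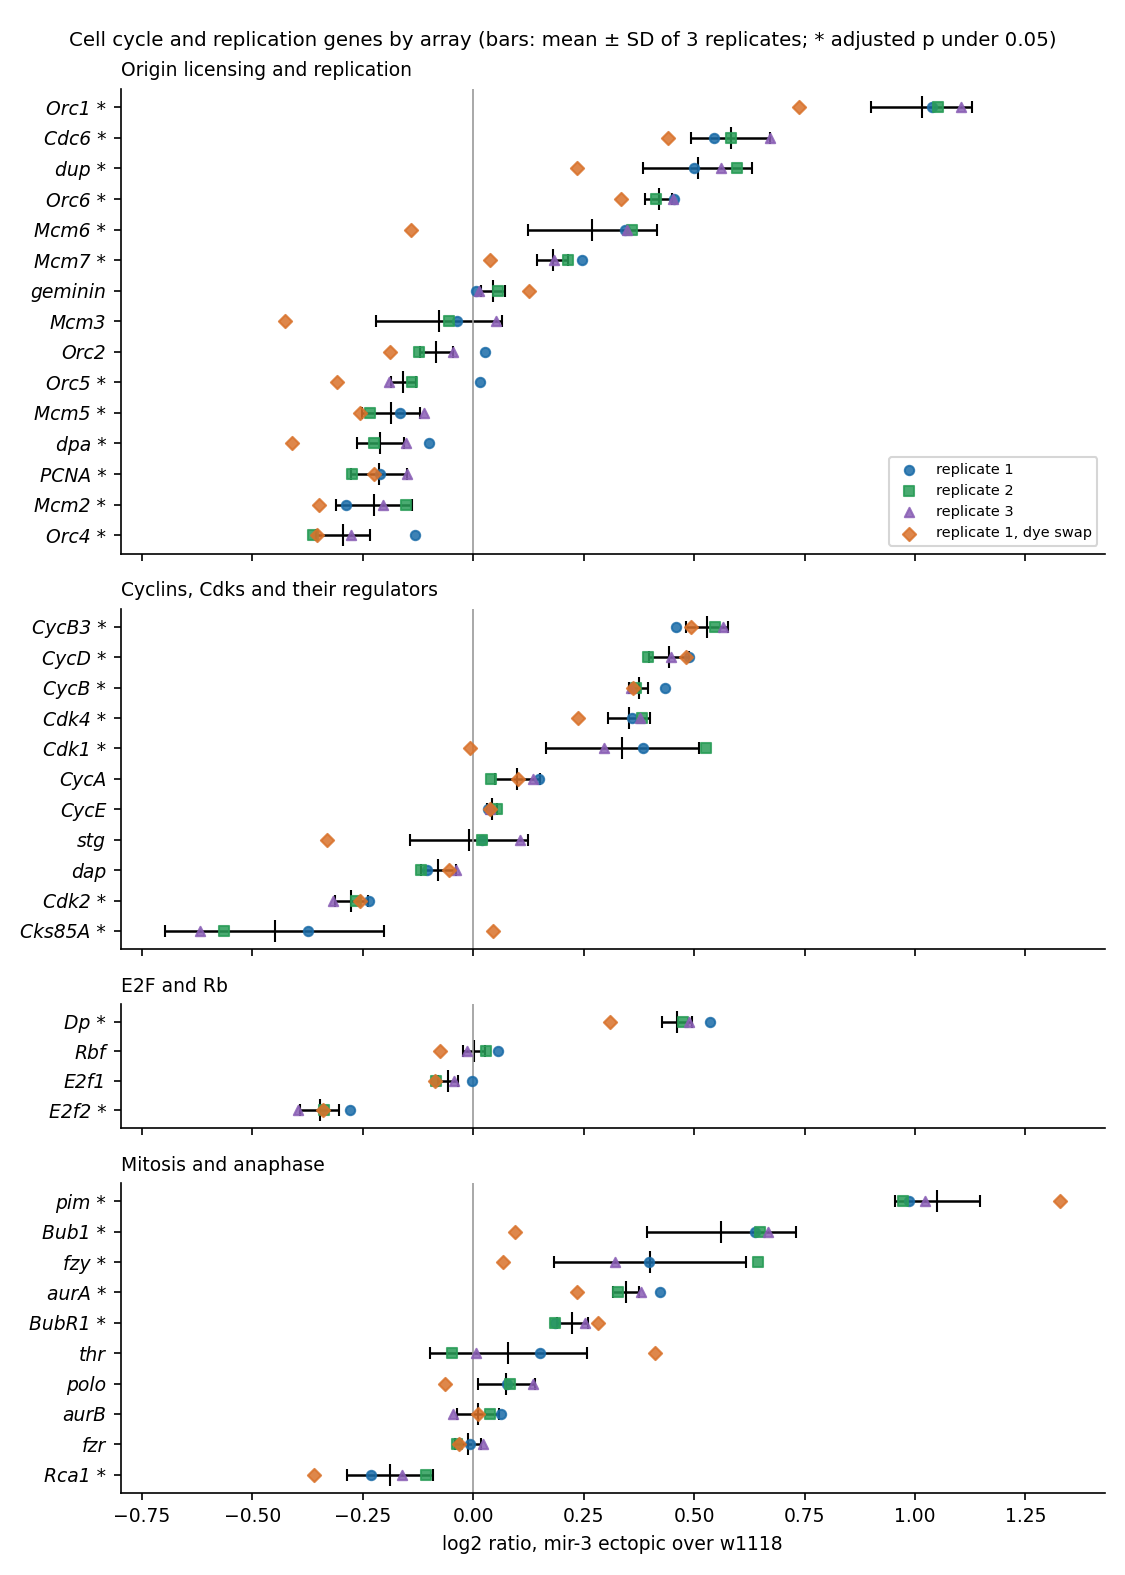
Log2 ratio of mir-3 ectopic over w1118 (horizontal axis) for each of the 40 genes (rows), in 4 panels by role. Points are arrays, bars the mean and SD of 3 replicates with both arrays of replicate 1 averaged, and a star marks an adjusted p under 0.05. *pim* and *Orc1* lie near 1, most of the rest lie between -0.5 and 0.6, and the diamonds of the dye-swap array often lie to the left of the other arrays.

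The licensing group had calls in both directions, with *Orc1*, *Orc6*, *Cdc6*, *dup*, *Mcm6* and *Mcm7* higher and *Orc4*, *Orc5*, *Mcm2*, *dpa*, *Mcm5* and *PCNA* lower. Of its 15 genes, 6 were higher, 6 lower and 3 not called, and the median was -0.08. That is 40% in each direction, against 24.3% higher and 24.4% lower over all genes. *Orc1* (CG10667), the ATPase subunit of the origin recognition complex that is made and destroyed in each cycle in flies, was the largest increase of the group. Its ratio was 1.04, 1.05 and 1.11 on the arrays of replicates 1, 2 and 3 and 0.74 on the dye swap. All 4 arrays were thus high, and both probes rose, by 1.06 and 0.97. The normalised signal averaged 5479 ± 429 units in mir-3 ectopic embryos and 2708 ± 147 units in w1118 embryos (SD, n = 3), without overlap between them. The mean log2 ratio was 1.01 ± 0.11 (SD, n = 3), or 2.02-fold, with an adjusted p of 1.5e-05.

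*Cdc6* (CG5971), which joins the complex at origins to load the helicase, had ratios of 0.55, 0.58 and 0.67 in replicates 1, 2 and 3 and 0.44 on the dye swap. Its mean was 0.58 ± 0.09 (SD, n = 3), adjusted p 0.00012, and every array was above 0.4. *dup* (CG8171), the fly Cdt1 that brings the MCM helicase to origins, had ratios of 0.50, 0.60 and 0.56 and of 0.23 on the dye swap, with a mean of 0.51 ± 0.12 and an adjusted p of 0.00039. Its inhibitor *geminin* (CG3183) did not pass at 0.04 ± 0.03 (adjusted p 0.41), with all 4 arrays between 0.005 and 0.13.

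The other origin recognition subunits went different ways. *Orc6* (CG1584), the smallest subunit, was at 0.45, 0.41 and 0.45 and at 0.33 on the dye swap, with a mean of 0.42 ± 0.03 and an adjusted p of 0.00025. *Orc4* was lower at -0.29 ± 0.06 and *Orc5* at -0.16 ± 0.03, while *Orc2* did not pass at -0.08 ± 0.04. The *Orc5* call was a narrow one: the array of replicate 1 was at 0.02, and the call was lost without replicate 2 or without replicate 3. On each of the 4 arrays *Orc1* and *Orc6* were above 0.3 and *Orc2*, *Orc4* and *Orc5* below 0.03.

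The 6 subunits of the MCM helicase, which unwinds DNA ahead of the fork as a ring, also differed. *Mcm2* was lower at -0.22 ± 0.09, *dpa*, the fly Mcm4, at -0.21 ± 0.05 and *Mcm5* at -0.19 ± 0.07, each on 4 of 4 arrays, and *Mcm3* did not pass at -0.08 ± 0.14. *Mcm6* was higher at 0.27 ± 0.15 and *Mcm7* at 0.18 ± 0.04. The *Mcm6* ratio was 0.34 to 0.36 on 3 arrays and -0.14 on the dye swap, and its call was lost without replicate 3. The *Mcm7* increase came from 1 of its 2 probes, the dimmer one at 0.37 ± 0.11, the brighter one being at -0.01 ± 0.05, and the call was lost without replicate 2 or without replicate 3. The *Mcm5* call was lost without replicate 2. *PCNA* (CG9193), the sliding clamp of the fork and a classic E2F target, was lower at -0.21 ± 0.06 (adjusted p 0.0071), with all arrays between -0.27 and -0.15, and without replicate 2 its call too was lost.

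Among cyclins, Cdks and their regulators, *CycB*, *CycB3*, *CycD*, *Cdk1* and *Cdk4* were higher and *Cdk2* and *Cks85A* were lower. Of the 11 genes 5 were higher (45.5%), 2 lower (18.2%) and 4 not called, and the median was 0.10. Over all genes 24.3% were higher and 24.4% lower. *CycB3* (CG5814), a mitotic cyclin with a role in anaphase, had ratios of 0.46, 0.55 and 0.57 in replicates 1, 2 and 3 and 0.49 on the dye swap. *CycD* (CG9096), the partner of Cdk4 in growth and G1, had ratios of 0.49, 0.40 and 0.45 and of 0.48 on the dye swap. For these 2 genes the dye swap lay within the range of the other arrays, and the means were 0.53 ± 0.05 (adjusted p 0.0001) and 0.44 ± 0.04 (adjusted p 0.00022; SD, n = 3 each).

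*CycB* (CG3510), the main mitotic cyclin with maternal and zygotic transcripts, rose by 0.37 ± 0.02 with each of its 3 probes called higher, from 0.23 to 0.48. *Cdk4*, the kinase bound by cyclin D, rose by 0.35 ± 0.05 on 2 probes that were both at 0.35 to 0.36. *Cdk1*, the mitotic kinase, was higher at 0.34 ± 0.17, but its dye-swap array was at -0.01 where the other arrays were at 0.30 to 0.53. *CycA*, which acts in G2 and mitosis, and *CycE*, the S phase cyclin bound to Cdk2, did not pass at 0.10 ± 0.05 and 0.04 ± 0.01, and the 4 *CycE* probes ran from -0.04 to 0.12.

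*Cdk2* (CG10498), the kinase of S phase, was lower at -0.28 ± 0.04 (adjusted p 0.0018), with all arrays between -0.32 and -0.24. *Cks85A* (CG9790), a small Cdk-binding subunit, was the only 1 of the 40 genes called lower past -0.4, at -0.45 ± 0.25 (adjusted p 0.0048). Its ratios were -0.37, -0.57 and -0.62 in replicates 1, 2 and 3 but 0.04 on the dye swap. On the 2 arrays of replicate 1 mir-3 ectopic RNA gave 403 units, and 432 on the dye swap, against 523 units, and 419 on the dye swap, in w1118 RNA. *stg* (CG1395), the zygotic Cdc25 phosphatase that sets the time of the late embryonic divisions, was at -0.01 ± 0.13 (adjusted p 0.90), with 0.02, 0.02 and 0.11 on 3 arrays and -0.33 on the dye swap. *dap* (CG1772), the p21-like inhibitor of cyclin E with Cdk2 that halts the epidermal cycle, averaged -0.08 ± 0.04 and did not pass, but its probes disagreed, as given further on.

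In the E2F and Rb group the dimerisation partner was higher and the repressive E2F lower. *Dp* (CG4654), the obligate partner of both fly E2Fs, had ratios of 0.54, 0.47 and 0.49 in replicates 1, 2 and 3 and 0.31 on the dye swap. Its 3 probes rose by 0.31, 0.40 and 0.68, and the mean was 0.46 ± 0.03 (SD, n = 3; adjusted p 0.00016). *E2f2* (CG1071), which mainly represses its targets, was lower on all arrays, at -0.28, -0.34 and -0.40 and at -0.34 on the dye swap, with a mean of -0.35 ± 0.04 and an adjusted p of 0.00067. *Rbf* (CG7413), the fly Rb protein, was at 0.002 ± 0.02 (adjusted p 0.98), and none of its 3 probes passed. *E2f1* (CG6376), the activating E2F, averaged -0.06 ± 0.02 (adjusted p 0.28) over probes in conflict. Of these 4 genes 1 was higher (25.0%) and 1 lower (25.0%), shares close to those of the whole array.

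Of the 10 genes of mitosis and anaphase, 5 were higher (50%), 1 was lower (10%) and 4 were not called. The shares of all genes were 24.3% higher and 24.4% lower. The median of the group was 0.15, with 0.23, 0.13 and 0.19 in replicates 1, 2 and 3. *pim* (CG5052), the fly securin that keeps sister chromatids together until anaphase, showed the largest difference of all 40 genes. Its ratios were 0.99, 0.97 and 1.02 in replicates 1, 2 and 3 and 1.33 on the dye swap, so every array was high. The single probe read 6608, 6033 and 6033 units in mir-3 ectopic RNA, and 6541 on the dye swap, against 3336, 3076 and 2970 units, and 2605 on the dye swap, in w1118 RNA. The mean was 1.05 ± 0.10 (SD, n = 3), or 2.07-fold, with an adjusted p of 9.2e-06. Its partner *thr* (CG5785), a part of fly separase, was not called at 0.08 ± 0.18 (adjusted p 0.37), with values from -0.05 to 0.15 on 3 arrays and 0.41 on the dye swap.

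*Bub1* (CG14030), a kinase of the spindle checkpoint, had ratios of 0.64, 0.65 and 0.67 in replicates 1, 2 and 3 but 0.10 on the dye swap, for a mean of 0.56 ± 0.17 (adjusted p 0.00054). *BubR1* (CG7838), its relative that holds back the anaphase-promoting complex, was higher at 0.22 ± 0.03 (adjusted p 0.0043), with 0.28 on the dye swap and 0.18 to 0.25 on the other arrays. *aurA*, the Aurora kinase of centrosomes and spindle poles, was higher at 0.35 ± 0.03, and *aurB*, the Aurora kinase of the chromosomal passenger complex, did not pass at 0.01 ± 0.05. Among regulators of the anaphase-promoting complex, *fzy*, the fly Cdc20, was higher at 0.40 ± 0.22 (adjusted p 0.0052), *fzr*, the fly Cdh1 that maintains G1, did not pass at -0.01 ± 0.03, and *Rca1*, an inhibitor of the complex, was lower at -0.19 ± 0.10. The *fzy* arrays spread widely, from 0.07 on the dye swap through 0.32 and 0.40 to 0.65 in replicate 2. The 3 *fzr* probes ran from -0.16 to 0.15, so their mean hides a spread. Only the lowest was called, as lower, and it was at 0.09 on the dye swap. The *Rca1* call was lost without replicate 3. *polo*, the mitotic kinase, averaged 0.08 ± 0.07 and did not pass.

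**Figure D2:**
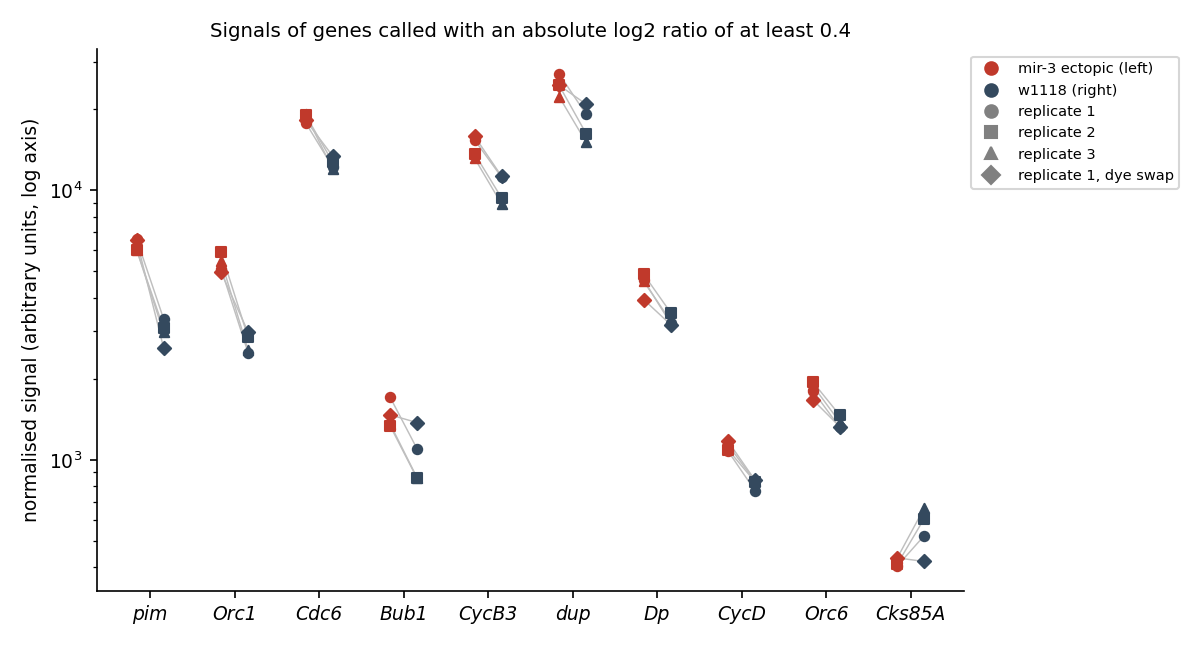
Normalised signal in arbitrary units (vertical log axis) of the 10 genes called with an absolute log2 ratio of at least 0.4, with mir-3 ectopic left and w1118 right and the 2 channels of an array joined by a line. In 9 genes the lines fall towards w1118 on 4 of 4 arrays, and for *Cks85A* they rise on 3 arrays and are near level on the dye swap; signals of different genes come from different probes and are not to be compared.

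Several probes of a gene did not always give 1 answer. Of 19 genes among the 40 with at least 2 probes, 3 had probes called in opposite directions, or 15.8%, against 178 of 3361 such genes on the whole array, or 5.30%. The conflict of *E2f1* was known when the 40 genes were chosen. The genes compared were not matched by number of probes or by share of probes called, so the 2 shares are a description only. In the fit of single probes 48% of all probes were called. The *E2f1* probes all carry the same transcript name, CG6376-RA, and from brightest to dimmest they averaged 0.14 ± 0.12, -0.18 ± 0.09, -0.48 ± 0.21 and 0.29 ± 0.05 (SD, n = 3 each). The brightest did not pass (adjusted p 0.075), the next pair were lower (0.026 and 0.0019) and the dimmest, at a mean log2 signal of 7.30 against 14.71 for the brightest, was higher (0.0023). On single arrays the third probe read -0.42, -0.64 and -0.56, and -0.08 on the dye swap, and the dimmest 0.36, 0.26 and 0.34, and 0.16 on the dye swap, with no overlap between these probes. The mean of -0.06 thus hides probes that moved both ways, and the direction of *E2f1* is uncertain.

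The 4 *dap* probes, all named CG1772-RA, averaged 0.19 ± 0.10, -0.17 ± 0.18, -0.55 ± 0.25 and 0.22 ± 0.05 (SD, n = 3 each) from brightest to dimmest. The third, called lower (adjusted p 0.0017), was at -0.64, -0.67 and -0.72 on 3 arrays and at 0.10 on the dye swap, so its decrease was seen in 1 dye orientation. The first and last were called higher (0.022 and 0.0072) and were at 0.05 and 0.01 on the dye swap. For *polo* the brighter probe, named CG12306-RB, was higher at 0.29 ± 0.13 and the dimmer, named CG12306-RA, lower at -0.14 ± 0.06, with dye-swap values of -0.04 and -0.09. Where along their transcripts these probes lie was not analysed here. The probes of *Orc1*, *CycB*, *Cdk4*, *Cdk1*, *Dp*, *fzy* and *Mcm6* were called in a single direction.

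**Figure D3:**
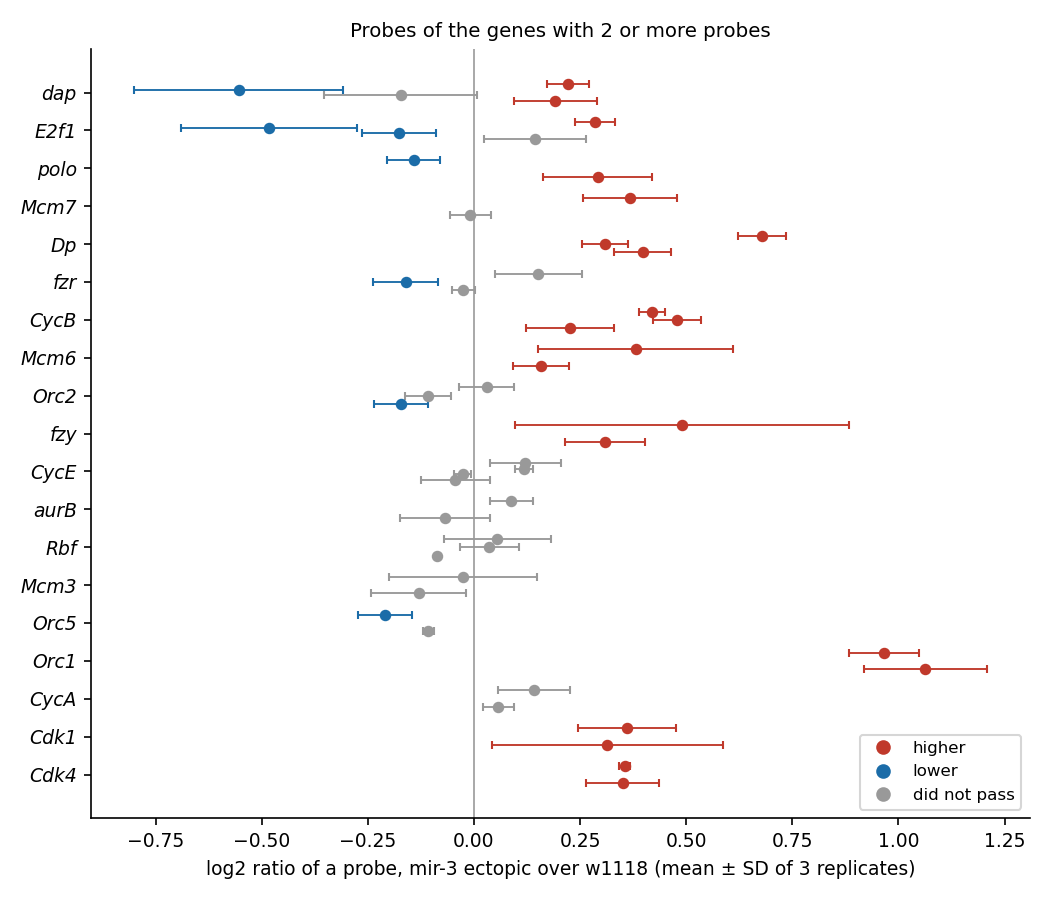
Mean log2 ratio of each probe (horizontal axis, bars SD of 3 replicates) for the 19 genes with 2 or more probes (rows), red where called higher, blue where called lower and grey where the probe did not pass. *dap*, *E2f1* and *polo* have probes of both colours, on both sides of 0.

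The dye-swap array often differed from the others, and as it is the only one of its orientation, dye and array cannot be told apart. Of the 40 genes, 23 had their lowest value on the dye-swap array (57.5%) and 5 their highest (12.5%), where over all genes 41.2% lay below the other arrays and 33.1% above. Of the 27 called genes, 23 had the same sign on 4 of 4 arrays, where 6321 of the 7241 genes called over the whole array did. As shares of all genes, called or not, these are 57.5% of the 40 and 42.5% of the array. Those shares also carry the larger share of the 40 called, 67.5% against 48.7%. The exceptions among the 27 were *Orc5*, *Mcm6*, *Cdk1* and *Cks85A*. In a fit that carried a dye term, all 27 calls held with the same sign, and *Orc2* (-0.12), *Mcm3* (-0.22) and *stg* (-0.14) passed as lower and *thr* (0.22) as higher, when 54.3% of all genes were called. In that fit *Orc1* was at 0.90, *pim* at 1.16, *Bub1* at 0.37, *fzy* at 0.26, *Cks85A* at -0.24, *Cdk1* at 0.20 and *Mcm6* at 0.10. Its spread comes only from the 3 arrays of one orientation, since the dye-swap array is fitted exactly. When replicate 1 was represented by its dye-swap array only, *Mcm6*, *Mcm7*, *Cdk1*, *Cks85A*, *fzy* and *Rca1* lost their calls.

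**Figure D4:**
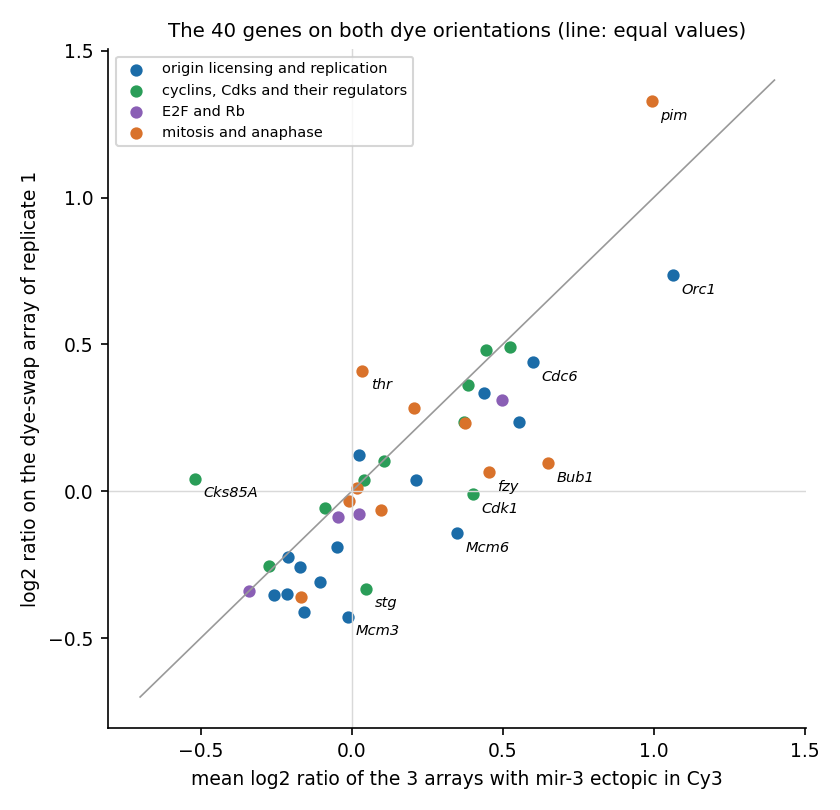
Log2 ratio on the dye-swap array of replicate 1 (vertical axis) against the mean of the 3 arrays with mir-3 ectopic RNA in Cy3 (horizontal axis), 1 point per gene, coloured by role, with the line of equal values. *pim* lies above the line, *Orc1* below it but far from 0, and *Bub1*, *fzy*, *Cdk1*, *Mcm6* and *Cks85A* lie close to 0 on the dye swap or past it.

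Other genes of the same processes were read beside the 40, from lists by role with 116 further genes, of which 115 were measured. The shares to set beside each of these lists are 24.3% higher and 24.4% lower, those of all genes. Among 28 replication fork genes 5 were higher (17.9%), 11 lower (39.3%) and 12 not called, and the median was -0.08. *RfC38*, a clamp loader subunit, was the largest exception at 1.62 ± 0.14 (adjusted p 2.8e-06, 1 probe), and *Mcm10*, which helps to activate the helicase, was at 0.60 ± 0.03. The single-stranded DNA binding subunits *RPA1* at -0.32 ± 0.02, *RPA2* at -0.53 ± 0.19 and *RPA3* at -0.22 ± 0.08 were all lower, *RPA2* being at -0.10 on the dye swap. Of 7 genes of nucleotide supply 2 were higher (28.6%) and 3 lower (42.9%). *dUTPase* (0.27 ± 0.03) and *dnk* (0.21) were higher, and *Ts* (-0.28) and *Ctps* (-0.15) were lower. On the dye swap *dnk* was at -0.05 and *Ts* at 0.21, and *Ts* was not called in the fit with a dye term. The ribonucleotide reductase genes *RnrS* and *RnrL* did not pass, at -0.18 ± 0.19 and -0.04 ± 0.16.

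Of 26 measured chromosome and spindle genes, 15 were higher (57.7%), 4 lower (15.4%) and 7 not called, and the median was 0.16, against the 24.3% and 24.4% of all genes. *ncd*, a minus-end kinesin of the spindle, rose by 0.81 ± 0.08 (adjusted p 2.6e-05), and *glu*, a condensin subunit, by 0.68 ± 0.10. The condensin subunits *barr* (-0.30 ± 0.05) and *Cap-G* (-0.31 ± 0.11) were lower, *Cap-G* being at 0.03 on the dye swap. Of 9 dREAM and E2F partner genes 6 were higher and 1 lower, among them *l(3)mbt*, a chromatin repressor, higher at 0.30 ± 0.03, and *lin-52*, a subunit of the complex, lower at -0.21 ± 0.03.

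Of 21 genes of mitotic entry and the checkpoint 10 were higher (47.6%) and 6 lower (28.6%), with a median of 0.02. *twe*, the germline Cdc25 that is supplied maternally, was higher at 0.71 ± 0.04 (adjusted p 2.8e-05), unlike its zygotic relative *stg*, and *gwl*, the Greatwall kinase, was higher at 0.55 ± 0.05. Its substrate *endos* was lower at -0.30 ± 0.05, as was *trbl*, which promotes String turnover, at -0.28 ± 0.01. The anaphase-promoting and SCF ubiquitin ligases were near the background, with 5 of 16 higher and 4 lower, led by the subunits *Cdc16* (0.50 ± 0.01), *lmgA* (0.50 ± 0.11) and *APC7* (-0.47 ± 0.02) and the ubiquitin-conjugating enzyme *vih* (-0.24). Of 8 centrosome genes 1 was higher, *Plp* (0.34 ± 0.07), and 3 lower, *Sas-6* (-0.20 ± 0.02) and *spd-2* (-0.15 ± 0.05) with the smallest p.

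**Figure D5:**
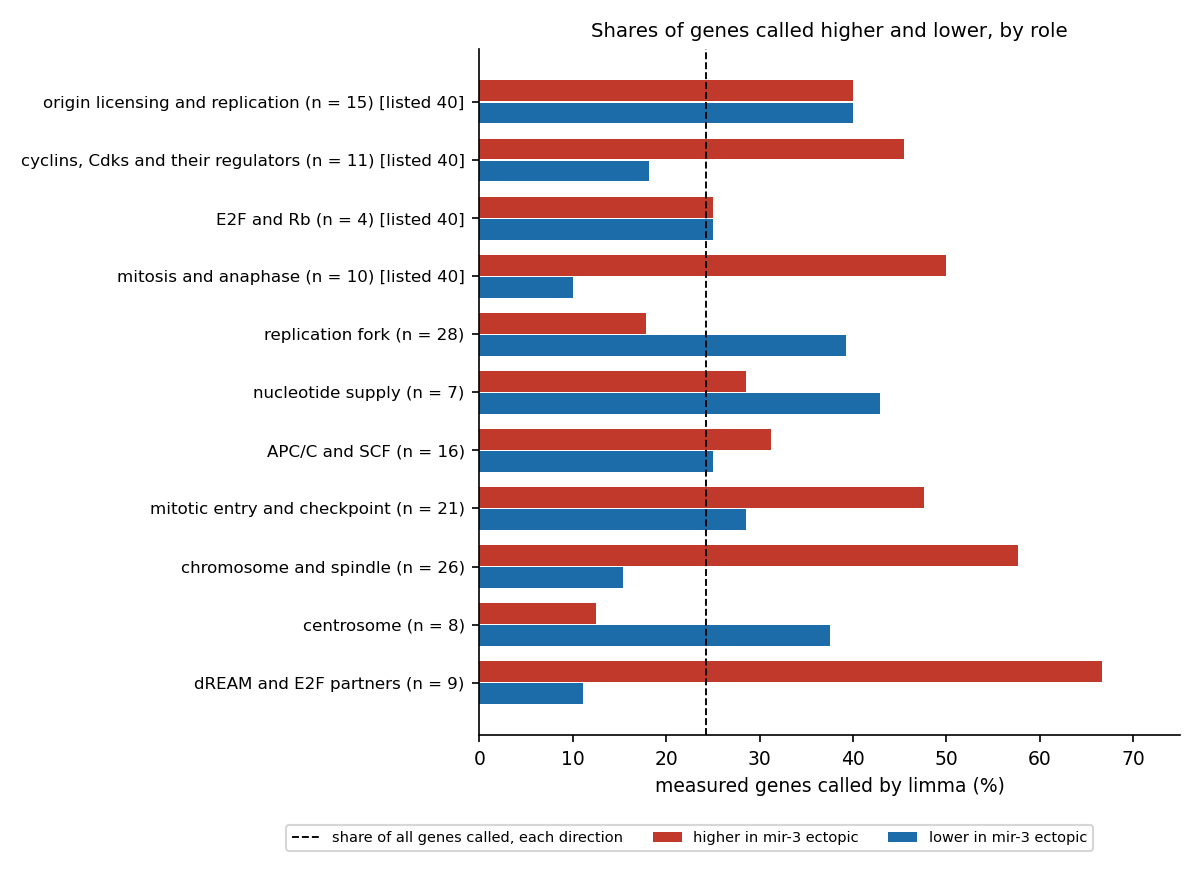
Share of measured genes called higher (red) and lower (blue) in mir-3 ectopic embryos, in %, for the 4 groups of the 40 genes (top) and the 7 further lists; n is the number measured and the dashed line the 24.3% of all genes called higher (24.4% lower). Mitosis and anaphase genes, chromosome and spindle genes and the dREAM list, which as drawn up includes *polybromo*, reach 50% or more higher. Replication fork genes have 17.9% higher and 39.3% lower.

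Lists of genes that mark other cells or ages were read in the same samples, beside 24.3% of all genes higher and 24.4% lower. Shares higher and lower were 41.2% and 47.1% for maternal transcripts and 50% and 12.5% for cellularization genes. They were 0% and 33.3% for neuroblast, 46.2% and 30.8% for germ cell and 7.1% and 71.4% for late cuticle genes. Of 17 maternal transcripts cleared early, 7 were higher and 8 lower, from -2.56 for *alphaTub67C*, the maternal tubulin, and -1.44 for *nanos* to 0.71 for *smg* and *twe*, and the median was -0.12. Summed signals weight the brightest probes most and can differ in direction from a list's median, as here, where the sum was 40369 to 43580 units in mir-3 ectopic RNA and 35003 to 36032 units in w1118 RNA. Of 8 measured cellularization genes 4 were higher, led by *slam* (0.80) and *Sry-alpha* (0.53), and 1 lower, with a median of 0.14 and sums of 23979 to 27759 units in mir-3 ectopic RNA and 16992 to 19282 units in w1118 RNA, and *nullo* and *bnk* were not bright enough to be kept. Of 12 neuroblast genes 0 were higher and 4 lower by limma, and 0 were higher at an unadjusted p under 0.05 or with the dye as a term. The lower ones were led by *sca* (-0.46) and *mira* (-0.24), *mira* being at -0.04 on the dye swap. The whole list had a median of -0.06 and sums of 34819 to 36959 units in mir-3 ectopic RNA and 38045 to 40943 units in w1118 RNA. Of 13 measured germ cell genes, *CycB3* among them, 6 were higher and 4 lower, led by *zpg* (1.68) and *pgc* (-1.76), with a median of -0.003 and sums of 40430 to 41270 units in mir-3 ectopic RNA and 35000 to 37891 units in w1118 RNA. Of 14 measured late cuticle genes 10 were lower and 1 higher, with *TwdlD* at -3.71 and a median of -1.66, and their sums were 4801 to 5112 units in mir-3 ectopic RNA and 9293 to 11285 units in w1118 RNA; *Osi7* was not bright enough to be kept. The part that cell makeup or embryo age plays in the differences of the 40 genes was not tested.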

How the data were processed

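Arrays were scanned and quantified by the authors with Agilent Feature Extraction 10.1.1.1, per the file headers. The deposited files give each spot's intensity as median foreground and local background on a linear scale, with processed signals and flags. The authors' deposited value table holds log2 ratios per probe: it equalled log2 of the processed signals within 2.85e-06, runs w1118 over mir-3 ectopic on all 4 arrays, and was not centred (its columns had medians of -0.11, -0.07 and 0.11 for the single-orientation arrays of replicates 1 to 3, and of -0.15 for the swapped array), so that scale, centring and direction are known.

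Background was corrected with normexp (offset 50) and ratios were normalised within arrays by loess, control spots at weight 0 (R 4.3.3, limma 3.58.1, statmod 1.5.0). Control spots and spots flagged as outliers (107 to 173 per array) were left out, and spots of a probe were averaged. Probes well above background in at least 1 genotype's channel on at least 3 of 4 arrays were kept, 19737 in all, and a gene's kept probes were averaged. Genes were named through a RefSeq gene table (Release 6 plus ISO1 MT), which matched 19537 of 32162 probes; no coordinates or sequences are given, since none of the array's build was used here. The dye swap was averaged into replicate 1 as a technical repeat, and 3 ratios per gene were tested against 0 with lmFit and eBayes, Benjamini-Hochberg adjusted over 14861 genes, and likewise over 19737 probes. Because both channels share an array, genotypes are paired by array. Channel signals in units come from Aquantile normalisation between arrays. Per-array values are given for genes called with an absolute log2 ratio of at least 0.4 and for those with conflicting probes, and others where a value bears on the call; from each further list up to 2 genes in each direction by p, and from lists of other cells or ages up to 2 by p. *RPA3*, *RnrS*, *RnrL*, *smg*, *twi*, *wg* and *elav* were added after their values were seen. The labels name separately isolated biological replicates. The 40 genes and the lists were chosen with earlier results of these data known, so no set test or p over a list is given, and 17 alternatives were run.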

Additional observations from a re-analysis of the deposited data

How the results depend on the processing

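Of the 27 calls among the 40 genes, all 27 kept their call with the processed signals, without background subtraction, with either other filter on dim probes, with outlier spots kept, with the median over probes, with the dye as a term and without replicate 1, which leaves slide 2 alone (slide 1 holds 1 replicate and no test). Counts of the 40 ran from 15 to 17 higher and from 7 to 10 lower when a replicate was left out. Centring arrays on the median, without loess, left 0 higher and 0 lower in limma, with 3 of the 40 at an unadjusted p under 0.05, 0 genes in probe conflict and the same direction for all 27, because the median SD between replicates was then 0.54, against 0.05 with loess. Over all genes it left 24 higher and 58 lower. With unpaired channels, that is with no replicate block, 17 were higher and 5 lower, *Orc5*, *Mcm2*, *dpa*, *PCNA* and *Rca1* losing their calls. The slide as a random block, and likewise the 4 arrays taken as 4 replicates, cost those of *Orc5* and *Mcm6*. Without the dye-swap array *Orc5* lost its call at -0.10 and *CycA* (0.11) and *polo* (0.10) passed as higher, and with the processed signals *Mcm3* and *aurB* passed too. For the brightest probe of a gene *Mcm7* was at -0.0087 and not called, *dap* passed as higher at 0.19, *polo* passed as higher at 0.29, *Orc2* passed as lower at -0.17 and *Orc5* lost its call at -0.11, and the cause was not tested beyond the probe values given above. Genes in probe conflict numbered 1 when only the dye swap stood for replicate 1, and 1 to 4 when a replicate was left out.

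Medians of the groups moved by more than the SD of their replicate medians as follows. That of cyclins and Cdks was 0.23 with the processed signals and 0.19 for the brightest probe, and that of mitosis and anaphase 0.23 with the dye as a term and 0.26 for the brightest probe. The licensing median was -0.013 without the dye-swap array and ran from -0.10 to -0.0018 when a replicate was left out. The E2F and Rb median, over 4 genes, was -0.0068 with the processed signals, 0.029 for the brightest probe, -0.0458 with the dye as a term, -0.0461 when only the dye swap stood for replicate 1, -0.043 with median centring, -0.016 with the median over probes, -0.0321 without background subtraction and -0.0099 without the dye-swap array. Ratios of dim probes are the least certain, and 3 replicates limit what small differences can be seen.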
